A study of Mus musculus with 16 samples.

Results

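Claudins and the other junction genes that hold epithelial cells together were examined in KPC1199 cells, a mouse pancreatic ductal adenocarcinoma line from a Pdx-cre driven tumour model. The genes were 39 members picked by name, and both deposited count tables list all 39, out of 56980 features in the IFNγ experiment and 55414 in the untreated experiment. They comprise 10 claudins, 5 other tight junction membrane proteins, 3 tight junction scaffolds, the epithelial adhesion molecule Epcam, 7 desmosome genes, 2 catenins, 3 polarity genes, 2 splicing regulators, 4 genes of membrane serine proteases and their inhibitors, and 2 genes of polarized trafficking. Bulk RNA sequencing was done on cells carrying a non-targeting control guide (sgCtrL) or the guide Sin3Bsg1 against Sin3b, a scaffold of histone deacetylase complexes, both delivered with Cas9 by lentivirus and selected with puromycin. In the untreated experiment each genotype had 2 libraries. In the IFNγ experiment each genotype had 3 libraries without IFNγ and 3 libraries after 10 ng per ml IFNγ for 24 hours. All groups share the alleles of the parent line and carry Cas9, and nothing in the labels or methods says whether the edited cells were 1 clone or a pool, or whether replicates came from separate cultures, so that the p-values below measure the spread between these libraries.

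Tight junctions seal the space between epithelial cells. Claudins and occludin span the membrane and set which ions and molecules may pass, while scaffold proteins of the ZO family and cingulin tie them to actin. Desmosomes couple neighbouring cells to keratin filaments through desmosomal cadherins, plakophilins, plakoglobin and desmoplakin, and catenins link the classical cadherins to actin. Polarity proteins of the Crumbs and Scribble groups place these junctions at the border between the apical and basolateral membrane. The ductal epithelium of the pancreas expresses many of these genes, but they are not particular to it. Carcinomas that lose epithelial character often lower genes of this kind.

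The cells that were compared differ by the guide shown here, because every genotype difference below rests on it. It matched GRCm39 chr8:73449982-73450001 on the plus strand, within the coding part of exon 1 (73449880 to 73450036) of Sin3b, and the capitals mark the PAM next to it in the genome.
Sin3Bsg1 with its PAM: tggctcccgctggggtcgttCGG
Sin3b itself was 86.0 ± 3.66 CPM in sgCtrL and 35.3 ± 1.71 in Sin3Bsg1 of the untreated experiment (SD, n = 2 in each), a log2 fold change of -1.28 (SE 0.0494, edgeR adjusted p = 1.19e-11). The log2 fold changes in the IFNγ experiment were -1.24 without IFNγ and -1.22 with IFNγ.

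The promoter stretches of 6 members are shown because these members were at least 1.5-fold higher in Sin3Bsg1 in all 3 genotype comparisons described below. A 7th such member, Esrp2, has no entry in the promoter table. Each run holds the 250 bases before the start of the gene, written 5′ to 3′ on the gene's strand, from RefSeq with the build GRCm38.p6. Capitals mark matches to CAGGTG or its other strand CACCTG, an E-box of the kind bound by Snail and Zeb repressors.
Lsr, chr7:30973470-30973719, minus strand: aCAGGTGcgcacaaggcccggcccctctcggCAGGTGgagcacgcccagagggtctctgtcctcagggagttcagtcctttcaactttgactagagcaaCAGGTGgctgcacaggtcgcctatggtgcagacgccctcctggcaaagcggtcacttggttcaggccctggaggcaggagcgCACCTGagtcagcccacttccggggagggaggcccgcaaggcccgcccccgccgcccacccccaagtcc
Spint2, chr7:29281978-29282227, minus strand: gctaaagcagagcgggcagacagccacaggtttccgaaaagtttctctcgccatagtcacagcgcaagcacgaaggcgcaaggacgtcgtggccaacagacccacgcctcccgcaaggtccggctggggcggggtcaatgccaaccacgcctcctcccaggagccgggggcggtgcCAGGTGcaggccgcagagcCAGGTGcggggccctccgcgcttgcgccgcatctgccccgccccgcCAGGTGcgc
Tjp3, chr10:81291582-81291831, minus strand: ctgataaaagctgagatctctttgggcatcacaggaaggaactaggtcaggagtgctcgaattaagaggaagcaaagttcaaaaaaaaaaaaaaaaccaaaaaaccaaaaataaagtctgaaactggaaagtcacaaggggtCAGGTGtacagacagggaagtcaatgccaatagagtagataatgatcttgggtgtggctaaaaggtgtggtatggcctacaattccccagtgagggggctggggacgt
Cldn6, chr17:23679115-23679364, plus strand: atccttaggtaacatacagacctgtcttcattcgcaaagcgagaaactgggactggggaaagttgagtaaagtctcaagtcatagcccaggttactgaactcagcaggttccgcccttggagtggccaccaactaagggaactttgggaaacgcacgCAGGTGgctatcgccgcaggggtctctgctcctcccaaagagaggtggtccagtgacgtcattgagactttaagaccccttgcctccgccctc
Cldn3, chr5:134985964-134986213, plus strand: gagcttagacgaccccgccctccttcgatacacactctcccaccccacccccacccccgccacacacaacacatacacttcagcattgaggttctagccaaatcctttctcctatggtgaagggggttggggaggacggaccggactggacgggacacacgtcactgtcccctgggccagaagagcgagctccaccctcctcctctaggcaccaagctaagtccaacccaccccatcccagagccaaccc
Spint1, chr2:119237110-119237359, plus strand: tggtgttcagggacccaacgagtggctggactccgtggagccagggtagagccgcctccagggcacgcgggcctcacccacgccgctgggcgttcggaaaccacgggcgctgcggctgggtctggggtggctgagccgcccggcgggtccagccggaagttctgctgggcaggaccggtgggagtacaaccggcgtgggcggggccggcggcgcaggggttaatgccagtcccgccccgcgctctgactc
Lsr held 4 matches, Spint2 held 3, Tjp3 and Cldn6 held 1 each, and Cldn3 and Spint1 held none. Among the 26 members with an entry in the promoter table, 13 held the E-box in these 250 bases at some listed start, and 19.4% of all 27025 gene symbols in the table did. The 13 were Ap1m2, Cldn4, Cldn6, Cldn7, Crb3, Epcam, F11r, Lsr, Ocln, Patj, Rab25, Spint2 and Tjp3. Of these, Ap1m2, Cldn4 and Rab25 had too few counts to be tested in either experiment. The STAT motif TTCNNNGAA was in 3 of the 26 (8.13% of all symbols), the tandem GAAA of interferon response elements (GAAA, any 2 bases, GAAA, on either strand) in 1 (3.46%) and the Grainyhead motif AACCGGTT in 0 (0.137%). The motifs were chosen after the values were seen, and a match is a run of letters, not a bound site.

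Marker genes were read to check the labelled cell type. The summed level of 8 ductal epithelial markers, among them the keratins Krt7, Krt8, Krt18 and Krt19, was between 3160 and 6190 CPM (counts per library size, scaled between libraries) over the 16 libraries. Most of this sum came from Krt8, Krt18 and Krt19. On the same list Cftr had at most 4 counts in any library, and Onecut1 had group means of 0.233 to 1.89 CPM. None of the 10 leukocyte markers rose above 3 counts in the untreated experiment. In the IFNγ experiment at most 1 of them did in a group. The 12 fibroblast markers summed to between 31.2 and 286 CPM. Fap, Lum and Postn stayed at or under 3 counts in every group, whereas Pdgfra had group means of 25.1 to 233 CPM and Pdgfrb of 6.06 to 35.0 CPM, and Dpt reached 18.6 CPM in sgCtrL without IFNγ. Summed endothelial markers reached 1.73 CPM, acinar markers 9.49 CPM and endocrine markers 0.272 CPM. A library held 29499676 to 32093612 counts when untreated, and 18128016 to 27056813 counts in the other experiment. Replicate 1 of sgCtrL with IFNγ stood apart: the chi-square per gene against its fellow replicates was 25.1 and 21.0, and 4.27 between those. Member counts are given with and without it. In bulk RNA, fewer expressing cells and less RNA per cell cannot be told apart.

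Levels per length (TPM, which divides by gene length, computed from the deposited gene lengths) spread over a wide range in sgCtrL. In the untreated experiment Ctnna1, the alpha-catenin that links cadherins to actin, was highest at 312 ± 2.67 TPM (SD, n = 2), followed by Ctnnd1, the p120 catenin, at 186 ± 1.30 TPM. F11r, the adhesion molecule JAM-A, at 151 ± 1.94 TPM did not differ beyond its spread from Cldn12 at 150.0 ± 0.219 TPM. The pore-forming claudin Cldn2 (136 ± 2.01 TPM) and Jup, plakoglobin (132 ± 3.33 TPM), were also within their spread of each other, and Tjp1, the scaffold ZO-1, followed at 125 ± 0.381 TPM.

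The claudins differed widely in level. Cldn18, a claudin of stomach and lung epithelium, was at 96.9 ± 0.214 TPM and Cldn3, a sealing claudin, at 62.5 ± 0.948 TPM in the untreated sgCtrL libraries, whereas Cldn1 was at 1.06 ± 0.0681 TPM. In sgCtrL without IFNγ of the IFNγ experiment, Cldn2 was the most abundant member at 350.0 ± 10.4 TPM (SD, n = 3), above Ctnna1 at 310.0 ± 8.18 TPM. Levels set across the experiments come from tables made separately and were compared only as values. The length listed for Epcam differs between the tables.

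At the low end, Cldn4, Dsc2, Pkp1, Esrp1 and Ap1m2 had at most 4 counts in any library, and Cldn23, Prss8 and Rab25 at most 13 counts. These 8 members passed the filter on low counts in neither table, so no test was made of them, and depth sets the limit on what could be seen. A claudin that read very differently in the experiments was Cldn15, another pore-forming claudin, with 3 and 3 counts in untreated sgCtrL, 0 and 9 in untreated Sin3Bsg1, and 95 to 144 counts in the libraries without IFNγ.

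**Figure D1:**
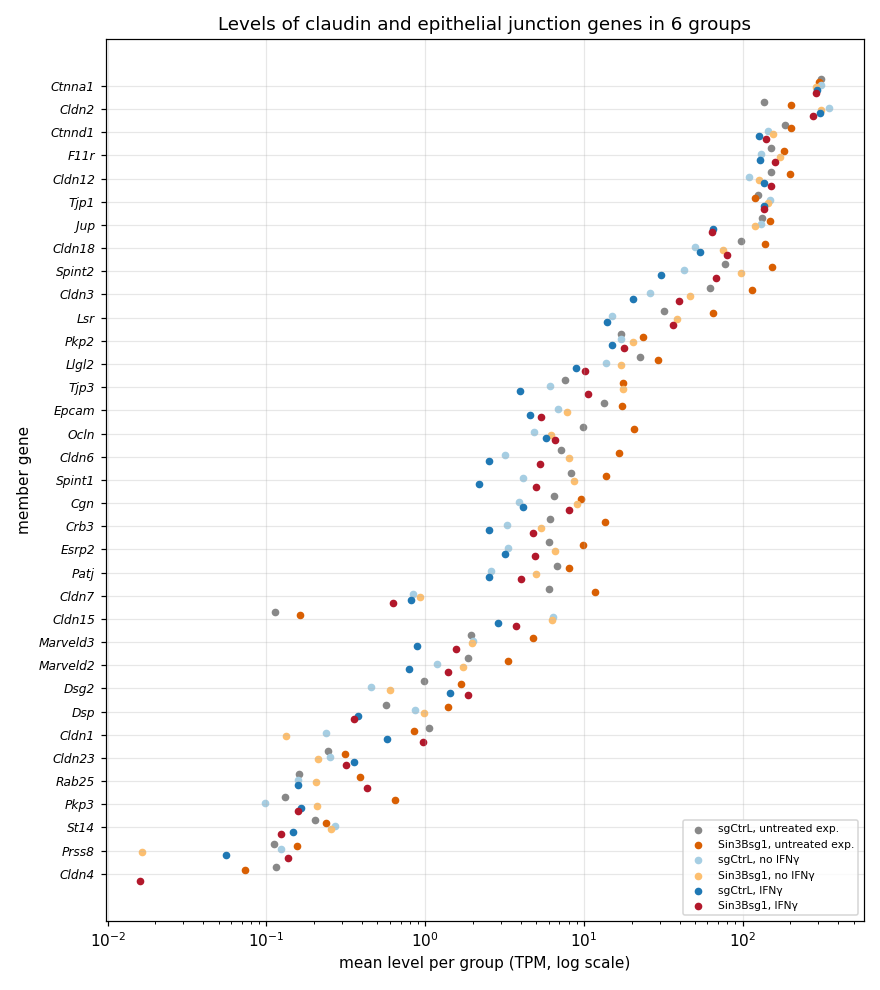
Mean TPM per group (log scale) of the members that reached 0.1 TPM in at least 1 group, as 1 row per gene and 1 point per group, with means of 0 not drawn. Catenins, Cldn2, F11r, Cldn12, Tjp1 and Jup sit near or above 100 TPM in most groups, and Cldn15 sits far lower in the 2 untreated groups than in the 4 groups of the IFNγ experiment.

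The first comparison asked what the guide against Sin3b changed in the untreated experiment. Of the 39 members, 30 passed the filter on low counts and 26 of these were higher in Sin3Bsg1 at an adjusted p under 0.05 (edgeR quasi-likelihood test, adjusted over all genes tested), while none was lower. Among all 14589 genes tested, 31.1% were called in either direction and 15.1% were higher and 16% lower. The median log2 fold change of the 30 members was 0.65, and that of all genes was 0.00243. Pkp3 passed the filter only through the Sin3Bsg1 libraries, so that it had to differ, and without it 25 of 29 members were higher, with a median of 0.58. The 4 members that did not pass the test were Cldn1, Tjp1, Ctnna1 and St14. In 26 of the 30 the groups did not overlap with Sin3Bsg1 higher, which 31.9% of all genes tested showed, and in 3 with Sin3Bsg1 lower (31.4%).

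The same genotype comparison was made without and with IFNγ in the IFNγ experiment. Of 30 members that passed the filter there, 13 were higher and 1, Cldn2, was lower without IFNγ, where 17.2% of all 14913 genes tested were called (7.89% higher, 9.33% lower). With IFNγ 13 were again higher and Cldn2 lower, where 16.5% of all genes tested were called (8.62% higher, 7.9% lower). The median log2 fold change of the 30 was 0.30 without and 0.37 with IFNγ, beside -0.00904 and 0.00362 over all genes. The groups did not overlap in 16 members with Sin3Bsg1 higher and 4 with it lower without IFNγ (18.3% and 20.9% of all genes), and in 17 and 1 with IFNγ (15.4% and 14.9%). Without replicate 1 of sgCtrL with IFNγ, the fit called 17 members without IFNγ (14 higher) and 15 with IFNγ, all of these higher. Calls over all genes rose in that fit too, from 2568 to 3529 without IFNγ and from 2464 to 2945 with IFNγ.

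The members higher in all 3 genotype comparisons were 11, namely Cldn3, Cldn6, Cldn18, F11r, Lsr, Tjp3, Cgn, Patj, Esrp2, Spint1 and Spint2. Every one of them kept its call in each comparison when any single library was left out. Over all genes tested, 15.1% were called higher in the untreated experiment, 7.89% without IFNγ and 8.62% with IFNγ. The share of all genes called higher in all 3 comparisons was not computed. Markers of other cells moved with genotype too. The summed level of the 12 fibroblast markers was 101 to 102 CPM in sgCtrL and 31.2 to 34.0 CPM in Sin3Bsg1 of the untreated experiment, 281 to 286 against 234 to 247 CPM without IFNγ, and 198 to 200 against 172 to 183 CPM with IFNγ. Most of this sum was Pdgfra, with log2 fold changes of -1.78, -0.26 and -0.21. Pdgfrb was lower in Sin3Bsg1 in the untreated experiment (-1.14) and higher without and with IFNγ (0.19 and 0.27). The 8 ductal markers summed to 4630 to 4650 against 6150 to 6190 CPM, 3160 to 3180 against 3340 to 3450 CPM, and 3250 to 3790 against 4220 to 4470 CPM in the same order. Their part in the junction gene differences was not tested.

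**Figure D2:**
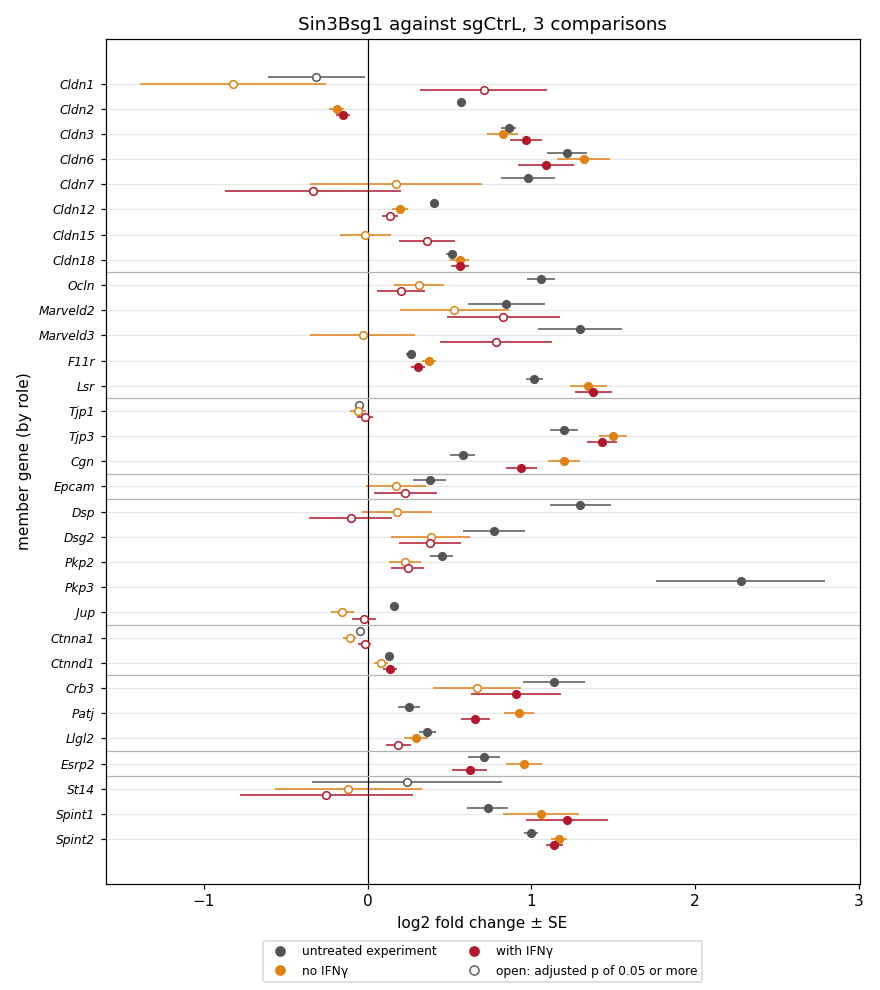
Log2 fold change (± SE) of Sin3Bsg1 against sgCtrL for each member tested, in 3 comparisons, ordered by role with lines between roles and with open symbols for an adjusted p of 0.05 or more. Most filled symbols lie to the right of 0, and Cldn2 is the member with filled symbols on both sides.

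Among the claudins, Cldn3 rose in all 3 comparisons. Its levels were 37.9 and 38.8 CPM in sgCtrL and 70.2 and 69.2 CPM in Sin3Bsg1 of the untreated experiment. Without IFNγ they were 14.5, 15.4 and 14.9 CPM in sgCtrL and 27.1, 26.6 and 25.8 CPM in Sin3Bsg1, and with IFNγ 14.3, 12.1 and 10.6 against 26.8, 23.2 and 22.2 CPM. No sgCtrL library reached a Sin3Bsg1 library of the same condition, and the log2 fold changes were 0.86 (SE 0.0456, edgeR adjusted p = 5.17e-10), 0.83 (SE 0.0942, adjusted p = 1.33e-05) and 0.97 (SE 0.0957, adjusted p = 3.67e-06). The gene next to it on chromosome 5 is Cldn4, with no protein-coding gene between them in RefSeq, and Cldn4 stayed at 4 counts or fewer in every library.

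Cldn6, a claudin best known from embryonic epithelia, had the highest log2 fold change of the claudins in all 3 comparisons. It had 5.48 and 5.89 CPM in sgCtrL and 12.2 and 14.3 CPM in Sin3Bsg1 of the untreated experiment. Libraries without IFNγ had 2.16, 2.34 and 2.57 CPM against 6.09, 5.70 and 5.81 CPM, and with IFNγ 2.14, 1.62 and 2.12 against 4.47, 3.63 and 4.34 CPM. The groups did not overlap in any condition, and the log2 fold changes were 1.22 (SE 0.122, edgeR adjusted p = 9.48e-07), 1.32 (SE 0.164, adjusted p = 3.22e-05) and 1.09 (SE 0.169, adjusted p = 2.89e-04).

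The more abundant claudins moved less. Cldn18 rose by log2 fold changes of 0.51, 0.56 and 0.57 in the 3 comparisons. Cldn12, an atypical claudin, rose by 0.41 in the untreated experiment and by 0.20 without IFNγ, and the value with IFNγ was 0.14 (edgeR adjusted p = 0.067). The call without IFNγ was lost without replicate 2 of sgCtrL without IFNγ.

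Cldn2 changed in opposite directions in the experiments. In the untreated experiment it had 204 and 200 CPM in sgCtrL and 298 and 302 CPM in Sin3Bsg1, a log2 fold change of 0.57 (SE 0.0247, edgeR adjusted p = 4.89e-11). In the second experiment, without IFNγ, levels were 486, 476 and 497 CPM in sgCtrL and 428, 434 and 417 CPM in Sin3Bsg1, a log2 fold change of -0.19 (SE 0.0438, adjusted p = 0.00662). Every Sin3Bsg1 library was above the sgCtrL libraries in the first experiment and below them in the second. With IFNγ the log2 fold change was -0.15 (adjusted p = 0.03), and that call was lost without any 1 of 5 of the 6 libraries with IFNγ. It was also lost on these 6 libraries alone and with no filter on low counts.

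Cldn7, which binds Epcam, was read well only in the untreated experiment. There it had 4.23 and 3.57 CPM in sgCtrL and 6.73 and 8.68 CPM in Sin3Bsg1, a log2 fold change of 0.98 (SE 0.165, edgeR adjusted p = 2.35e-04). In the IFNγ experiment its counts were 6 to 18 in a library and neither genotype comparison passed the test (log2 fold changes of 0.17, SE 0.526, and -0.33, SE 0.54). Cldn1 passed in none of the 3, with 1.75 and 1.60 CPM in sgCtrL against 1.56 and 1.13 CPM in Sin3Bsg1 of the untreated experiment, and neither did Cldn15 in the 2 it was tested in.

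All 5 other tight junction membrane proteins were called higher in the untreated experiment, where 15.1% of all genes tested were. Of the 5, Lsr and F11r were also called higher without and with IFNγ (7.89% and 8.62% of all genes tested). Lsr, angulin-1, recruits tricellulin to the corners where cells meet, and it had 31.0 and 32 CPM in sgCtrL and 64.5 and 62.9 CPM in Sin3Bsg1 of the untreated experiment. The levels without IFNγ were 13.9, 12.7 and 15.1 CPM against 37.0, 37.7 and 31.3 CPM, and with IFNγ 17.1, 11.7 and 12.1 against 35.8, 35.3 and 34.6 CPM. Each Sin3Bsg1 library was above every sgCtrL library of its condition, with log2 fold changes of 1.02 (SE 0.0493, edgeR adjusted p = 1.86e-10), 1.35 (SE 0.116, adjusted p = 7.31e-07) and 1.38 (SE 0.115, adjusted p = 5.61e-07). The deposited counts of Lsr were not whole in any library, and the cause was not tested.

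Ocln, occludin, rose in the untreated experiment. It had 11.7 and 11.8 CPM in sgCtrL and 23.8 and 25.3 CPM in Sin3Bsg1 there, a log2 fold change of 1.06 (SE 0.0835, edgeR adjusted p = 6.04e-08). Libraries not given IFNγ had 5.28, 6.30 and 4.76 CPM in sgCtrL and 5.63, 7.92 and 6.92 CPM in Sin3Bsg1, so that the groups overlapped and the log2 fold change was 0.31 (SE 0.153, adjusted p = 0.189). With IFNγ the levels were 7.31, 6.42 and 6.49 against 7.90, 8.64 and 6.70 CPM, which also overlapped, and the log2 fold change was 0.20 (SE 0.147, adjusted p = 0.396).

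Marveld3, a relative of occludin, had 1.28 and 1.22 CPM in sgCtrL and 2.68 and 3.50 CPM in Sin3Bsg1 of the untreated experiment, a log2 fold change of 1.30 (SE 0.257, edgeR adjusted p = 9.76e-04). Levels in the libraries without IFNγ were 1.62, 0.918 and 1.12 CPM against 1.26, 1.22 and 1.08 CPM, and with IFNγ 0.497, 0.718 and 0.496 against 1.09, 1.21 and 0.687 CPM. Neither difference in that experiment passed the test, and the groups overlapped in both conditions. Marveld2, tricellulin, whose gene lies next to Ocln on chromosome 13, rose by a log2 fold change of 0.85 (SE 0.237, adjusted p = 0.0117) in the untreated experiment, a call that was lost with DESeq2 (adjusted p = 0.0646) and without replicate 2 of sgCtrL or replicate 1 of Sin3Bsg1. F11r rose in all 3 comparisons, by 0.26, 0.37 and 0.31.

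Of the scaffolds, Tjp3 and Cgn rose and Tjp1 did not pass the test. Tjp3, ZO-3, had 10.6 and 11 CPM in sgCtrL and 25.2 and 24.3 CPM in Sin3Bsg1 of the untreated experiment. Without IFNγ the values were 8.63, 8.06 and 7.49 CPM against 22.2, 24.8 and 21.7 CPM, and with IFNγ 5.72, 5.21 and 5.59 against 14.4, 14.4 and 15.5 CPM. The groups stood far apart in every condition, with log2 fold changes of 1.20 (SE 0.084, edgeR adjusted p = 1.51e-08), 1.5 (SE 0.086, adjusted p = 9.08e-09) and 1.43 (SE 0.0914, adjusted p = 3.03e-08).

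Cgn, cingulin, had 15.6 and 16.1 CPM in sgCtrL and 23.4 and 24.0 CPM in Sin3Bsg1 of the untreated experiment. In the libraries without IFNγ there were 8.36, 9.06 and 9.41 CPM against 22.5, 18.9 and 20.3 CPM, and with IFNγ 8.60, 11 and 10.7 against 19.8, 19.2 and 19.4 CPM. Again no library of one genotype reached the other, and the log2 fold changes were 0.58 (SE 0.078, edgeR adjusted p = 2.44e-05), 1.20 (SE 0.0977, adjusted p = 4.10e-07) and 0.94 (SE 0.0952, adjusted p = 4.79e-06). Tjp1 had log2 fold changes of -0.05, -0.06 and -0.02, with SEs of 0.0207, 0.0489 and 0.0488.

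Of the 7 desmosome genes, 5 were tested in the untreated experiment, and without Pkp3, which passed the filter only through Sin3Bsg1, the other 4 were all called higher, where 15.1% of all genes were. None of the 4 tested in the IFNγ experiment was called in either genotype comparison. Over all genes tested, 17.2% were called without IFNγ and 16.5% with it, and 4 genes are too few to set none apart from these shares. Dsp, desmoplakin, which ties the plaque to keratin, had 2.18 and 3.10 CPM in sgCtrL and 6.69 and 6.32 CPM in Sin3Bsg1 of the untreated experiment, a log2 fold change of 1.30 (SE 0.185, edgeR adjusted p = 4.36e-05). Libraries without IFNγ had 4.48, 3.59 and 3.26 CPM against 4.76, 3.78 and 4.26 CPM, with overlapping groups and a log2 fold change of 0.18 (SE 0.216, adjusted p = 0.642).

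Dsg2, a desmosomal cadherin, had 2.49 and 3.03 CPM in sgCtrL and 4.67 and 4.76 CPM in Sin3Bsg1 of the untreated experiment, a log2 fold change of 0.77 (SE 0.189, edgeR adjusted p = 0.00477). Pkp3, a plakophilin, had 6 and 5 counts in sgCtrL and 26 and 32 counts in Sin3Bsg1 there, that is 0.202 and 0.170 against 0.810 and 1.04 CPM, with a log2 fold change of 2.28 (SE 0.517, adjusted p = 0.00282). In the IFNγ experiment Pkp3 had 0 to 11 counts and was not tested. Pkp2 rose by 0.45 and Jup by 0.16 in the untreated experiment.

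Epcam, the adhesion molecule used to sort epithelial cells, rose by a log2 fold change of 0.38 (SE 0.0992, edgeR adjusted p = 0.00785) in the untreated experiment, a call lost with DESeq2 (adjusted p = 0.0539) and without replicate 2 of Sin3Bsg1, and its values of 0.17 and 0.23 in the IFNγ experiment did not pass the test. The catenins moved little. Ctnnd1 rose by 0.13 in the untreated experiment and by 0.14 with IFNγ, and the latter call was lost on the 6 libraries of that contrast alone and without any of several libraries. Ctnna1 was called in none of the 3.

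All 3 polarity genes were called higher in the untreated experiment, where 15.1% of all genes tested were. Crb3, a Crumbs protein of the apical membrane, had 2.28 and 2.35 CPM in sgCtrL and 5.42 and 4.83 CPM in Sin3Bsg1 there, a log2 fold change of 1.14 (SE 0.188, edgeR adjusted p = 1.84e-04). In the second experiment, without IFNγ, levels were 1.02, 1.25 and 1.23 CPM against 1.79, 2.35 and 1.46 CPM, and with IFNγ 0.994, 1.10 and 0.766 against 1.42, 1.82 and 2.15 CPM. The groups did not overlap in either condition, but only the difference with IFNγ passed the test (log2 fold changes of 0.67, adjusted p = 0.111, and 0.91, adjusted p = 0.0341), and that call was lost without replicate 3 of sgCtrL with IFNγ or replicate 2 or 3 of Sin3Bsg1 with IFNγ. It was also lost on the 6 libraries of that contrast alone and with no filter on low counts.

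Patj, a scaffold of the Crumbs complex, rose by 0.26 in the untreated experiment (edgeR adjusted p = 0.00811, but 0.0557 with DESeq2), by 0.92 without IFNγ and by 0.66 with IFNγ. Llgl2, a Scribble group protein of the lateral membrane, rose by 0.37 and 0.30 in the first 2 comparisons and had 0.19 (adjusted p = 0.111) with IFNγ. Its call without IFNγ was lost without replicate 2 of sgCtrL. Esrp2, which directs epithelial splicing, rose by 0.71, 0.96 and 0.62. The counts of Patj, Cgn, Esrp2 and F11r were also not whole in part of the libraries.

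The inhibitors of membrane serine proteases rose while the proteases themselves were hardly read. Spint2, HAI-2, had 50.3 and 53.6 CPM in sgCtrL and 105 and 103 CPM in Sin3Bsg1 of the untreated experiment. The levels without IFNγ were 26.7, 26.4 and 28.0 CPM against 61.7, 61.4 and 59.2 CPM, and with IFNγ 20.3, 20.7 and 20.3 against 43.5, 45.9 and 45.3 CPM. The groups lay far from each other in all 3, and the log2 fold changes were 1.0 (SE 0.0416, edgeR adjusted p = 3.08e-11), 1.17 (SE 0.0503, adjusted p = 5.10e-10) and 1.14 (SE 0.0517, adjusted p = 9.20e-10).

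Spint1, HAI-1, had 7.66 and 7.79 CPM in sgCtrL and 11.4 and 14.3 CPM in Sin3Bsg1 of the untreated experiment. Libraries not given IFNγ had 3.34, 2.75 and 4.65 CPM against 7.01, 7.40 and 7.87 CPM, and with IFNγ 3.08, 1.36 and 1.58 against 4.64, 4.32 and 4.77 CPM. No libraries overlapped between the genotypes, with log2 fold changes of 0.73 (SE 0.123, edgeR adjusted p = 2.17e-04), 1.06 (SE 0.23, adjusted p = 0.0042) and 1.22 (SE 0.252, adjusted p = 0.0032). The last was 1.65 without replicate 1 of sgCtrL with IFNγ. Their target St14, matriptase, had 2 to 16 counts in a library and passed no test, and Prss8, prostasin, was not tested.

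**Figure D3:**
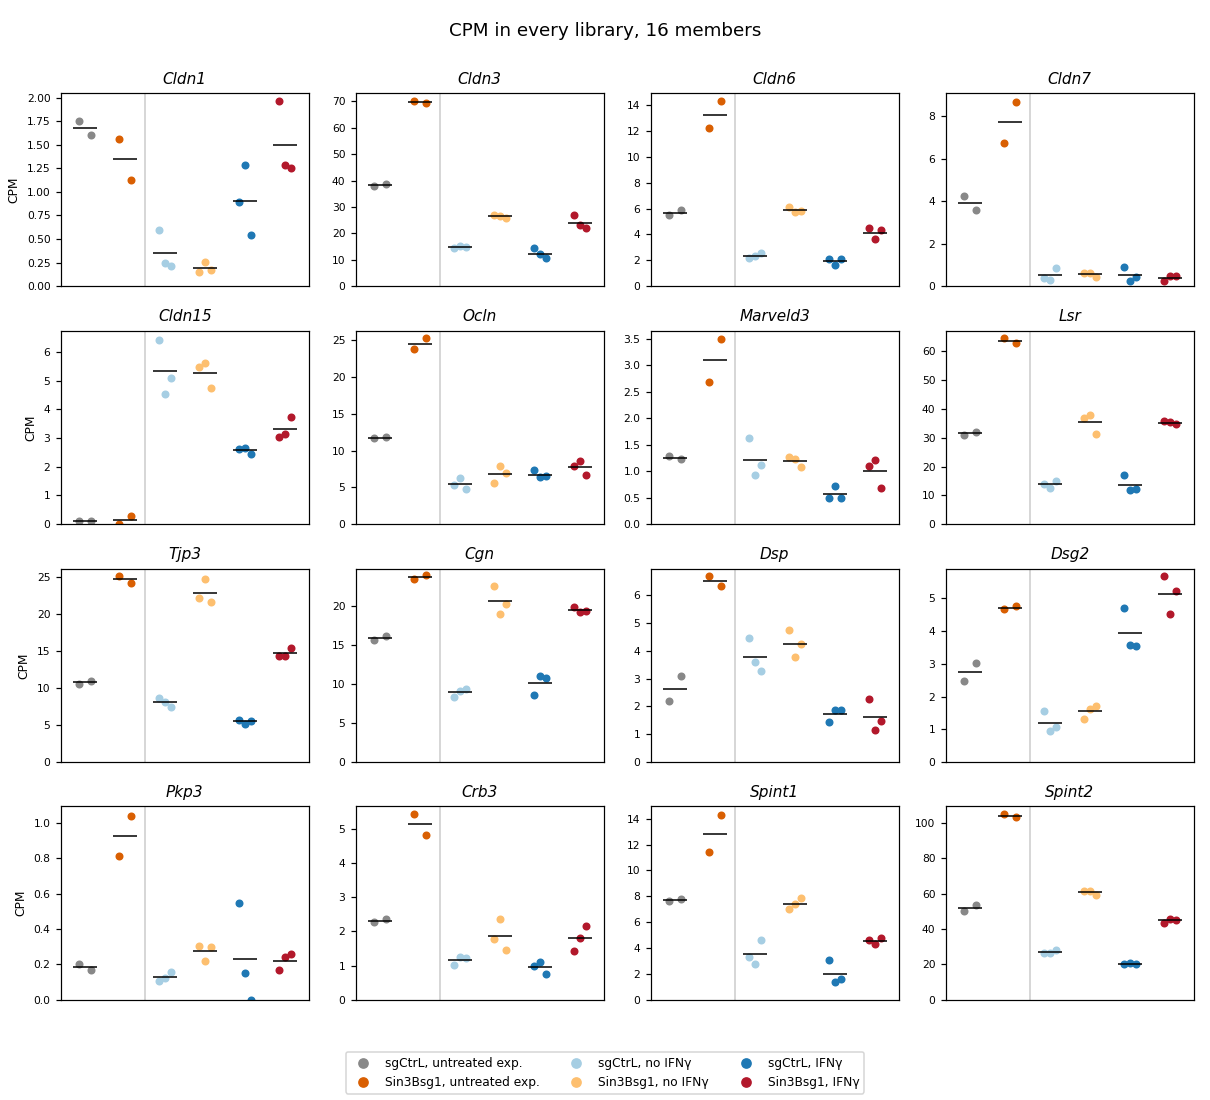
CPM of the 16 members with the largest changes in every library (points) with the group mean (line), each panel from 0 on its own linear axis, with the untreated experiment left of the grey line. Sin3Bsg1 points lie above sgCtrL points of the same condition for Cldn3, Cldn6, Lsr, Tjp3, Cgn, Spint1 and Spint2 in all 3 pairs of groups.

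IFNγ lowered more members than it raised. In sgCtrL 13 of 30 members were called, 4 higher and 9 lower, where 30.2% of all genes tested were called (15.7% higher, 14.5% lower), and the median log2 fold change of the 30 was -0.12 beside -0.00062 over all genes. In Sin3Bsg1 14 were called, 4 higher and 10 lower, where 28.4% of all genes were (16.1% higher, 12.3% lower), with a median of -0.18 beside 0.00519. The groups did not overlap in 5 members with IFNγ higher and 13 with IFNγ lower in sgCtrL (20.8% and 20.7% of all genes), and in 5 and 14 in Sin3Bsg1 (24.3% and 21.1%). Without replicate 3 of sgCtrL without IFNγ the fit called 8 in sgCtrL (3568 against 4507 over all genes), and without replicate 1 of Sin3Bsg1 without IFNγ it called 9 in Sin3Bsg1 (3347 against 4232). Cldn1 passed the filter through the IFNγ libraries, and without it 12 of 29 were called in sgCtrL and 13 of 29 in Sin3Bsg1. Without replicate 1 of sgCtrL with IFNγ the counts were 13 and 14, with 4726 and 5248 calls over all genes.

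**Figure D4:**
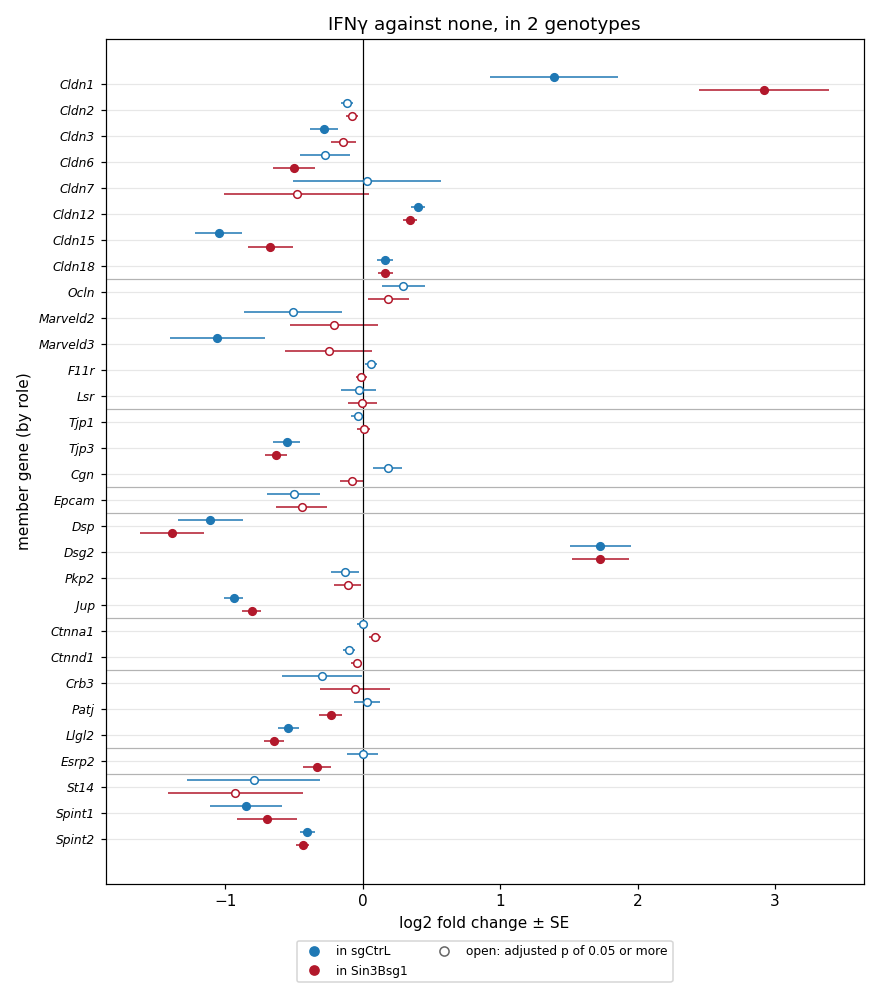
Log2 fold change (± SE) of IFNγ against none for each member tested, in sgCtrL and in Sin3Bsg1, ordered by role, with open symbols for an adjusted p of 0.05 or more. Cldn1 and Dsg2 lie far to the right, and Dsp, Jup and Cldn15 lie to the left in both genotypes. Cldn1 passed the filter on low counts through the libraries with IFNγ, which favoured a rise.

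The desmosome genes moved in both directions with IFNγ. Dsg2 rose from 1.56, 0.960 and 1.07 CPM to 4.72, 3.59 and 3.56 CPM in sgCtrL, and from 1.33, 1.61 and 1.72 to 5.68, 4.52 and 5.24 CPM in Sin3Bsg1. The log2 fold changes were 1.73 in both (SE 0.224, edgeR adjusted p = 2.09e-05, and SE 0.206, adjusted p = 8.63e-06). Dsp fell from 4.48, 3.59 and 3.26 CPM to 1.44, 1.89 and 1.89 CPM in sgCtrL, and from 4.76, 3.78 and 4.26 to 2.26, 1.17 and 1.46 CPM in Sin3Bsg1, by 1.11 and 1.39 on the log2 scale (adjusted p = 0.00209 and 2.55e-04). In both genes the IFNγ libraries lay apart from the others.

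Jup, much more abundant, fell by 0.94 and 0.81 on the log2 scale, from 188 to 199 CPM to 92.3 to 116 CPM in sgCtrL. Pkp2 was called in neither genotype (-0.13 and -0.11).

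Cldn1, a sealing claudin, rose from a low level. It had 11, 6 and 4 counts in sgCtrL without IFNγ and 18, 34 and 12 with it, and 4, 6 and 4 counts in Sin3Bsg1 without IFNγ and 47, 32 and 29 with it. In CPM these were 0.593, 0.250 and 0.214 against 0.895, 1.28 and 0.541 in sgCtrL, which overlapped, and 0.152, 0.261 and 0.172 against 1.96, 1.29 and 1.25 in Sin3Bsg1, which did not. The log2 fold changes were 1.39 (SE 0.465, edgeR adjusted p = 0.0341) and 2.92 (SE 0.474, adjusted p = 2.00e-04). Cldn1 passed the filter on low counts through the libraries with IFNγ, so that a rise was favoured from the start. These p-values are therefore no support for the rise. The call in sgCtrL was lost without replicate 1 or 2 of sgCtrL with IFNγ (1.39 and 1.02) and without replicate 2 or 3 of sgCtrL without IFNγ (1.17 and 1.15). It was also lost on the 6 libraries of that contrast alone.

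Cldn15 fell from 6.42, 4.55 and 5.08 CPM to 2.63, 2.64 and 2.43 CPM in sgCtrL and from 5.48, 5.61 and 4.73 to 3.05, 3.15 and 3.74 CPM in Sin3Bsg1. The groups did not overlap, and the falls were 1.05 and 0.67 on the log2 scale (edgeR adjusted p = 1.88e-04 and 0.00489). Cldn12 rose by 0.40 and 0.35. The rise of Cldn18 by 0.16 in both genotypes was lost under most other settings, and so was the fall of Cldn3 in sgCtrL by 0.28 without any of several libraries.

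Tjp3, Llgl2, Spint1 and Spint2 were lower with IFNγ in both genotypes. Tjp3 fell by 0.55 in sgCtrL and 0.63 in Sin3Bsg1, Llgl2 by 0.54 and 0.65, and Spint2 by 0.40 and 0.44. Spint1 fell by 0.85 and 0.70 (in sgCtrL -0.62 without replicate 3 without IFNγ), but its call was lost in sgCtrL without replicate 3 of either group or replicate 2 with IFNγ, and in Sin3Bsg1 without any of its 6 libraries. Marveld3 fell by 1.06 in sgCtrL (adjusted p = 0.0291), a call lost without replicate 1 or 3 of either sgCtrL group. The sgCtrL calls of Spint1 and Marveld3 were also lost on the 6 libraries of that contrast alone. Cldn6, Esrp2 and Patj were called lower only in Sin3Bsg1, by 0.50, 0.33 and 0.23, and each was lost without 2 or more single libraries, and the difference between genotypes was not called. Lsr, Cgn, F11r, Tjp1, Ocln, Epcam and the catenins passed in neither genotype. Among the 8 ductal markers, 7 were tested. In sgCtrL 5 fell with IFNγ (Krt19, Krt7, Muc1, Onecut1 and Sox9) and Krt18 rose by 0.72, with a median of -0.45. Over all genes tested in sgCtrL, 14.5% were called lower and 15.7% higher. In Sin3Bsg1 the same 5 fell and Krt18 and Krt8 rose, by 0.94 and 0.39, with a median of -0.35. Over all genes tested there, 12.3% were called lower and 16.1% higher. The sum of the 8 ductal markers went from 3160 to 3180 CPM to 3250 to 3790 CPM in sgCtrL, and from 3340 to 3450 to 4220 to 4470 CPM in Sin3Bsg1. The sum of the fibroblast markers went from 281 to 286 CPM to 198 to 200 CPM in sgCtrL, and from 234 to 247 to 172 to 183 CPM in Sin3Bsg1. Their part in the changes of the junction genes was not tested.

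Whether the genotype difference changed with IFNγ was tested by the interaction. No member was called by edgeR, where 0.114% of all genes tested were (0.0805% higher, 0.0335% lower), and DESeq2 called none either. At an unadjusted p under 0.05 there were 2 members, Cldn1 and Esrp2. The share of all genes under that threshold is not given here, so the 2 are not read as a result. Cldn1 had the largest value, 1.53 (SE 0.69, edgeR adjusted p = 0.907), with the larger rise in Sin3Bsg1, but it passed the filter through the libraries with IFNγ. Esrp2 had -0.33 (SE 0.153, edgeR adjusted p = 0.912).

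Whether the genotype difference differed between the experiments was tested on the libraries without IFNγ, as the difference in the IFNγ experiment minus that in the untreated experiment. Of 31 members tested, 9 were called, 3 higher and 6 lower, where 13.6% of all 15264 genes tested were called (6.8% higher and 6.8% lower). Cldn2 had -0.75 (SE 0.0406, edgeR adjusted p = 8.05e-11), Ocln -0.75 (SE 0.176, adjusted p = 0.00611), Dsp -1.11 (SE 0.261, adjusted p = 0.00621), Marveld3 -1.31 (SE 0.408, adjusted p = 0.0361), Jup -0.31 and Cldn12 -0.20. Cgn had 0.63 (SE 0.123, adjusted p = 0.00133), Patj 0.68 (SE 0.114, adjusted p = 3.33e-04) and Lsr 0.35 (SE 0.108, adjusted p = 0.0371). The calls of Dsp, Marveld3 and Lsr were each lost without some single library, and Marveld3 was also lost with DESeq2.

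The wider junction list holds 79 other genes, of which 45 passed the filter in the untreated table and 43 in the other. In the untreated experiment 14 were higher and 12 lower in Sin3Bsg1, with a median log2 fold change of 0.04, where 15.1% and 16% of all genes tested were. Without IFNγ 9 were higher and 9 lower (7.89% and 9.33% of all genes), and with IFNγ 9 higher and 8 lower (8.62% and 7.9%). Perp, a desmosomal membrane protein, had log2 fold changes of 1.32, 0.90 and 1.12. Prkcz, an atypical protein kinase C of the Par complex, had higher values than Perp without and with IFNγ (1.94 and 2.54) at a mean under 1 CPM over the groups compared, and was named after its values were seen. Plekha7, of the adherens junction, rose by 0.86 without IFNγ, and Pard6g, a polarity adaptor, fell by 1.17, 1.02 and 0.83.

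Among 13 epithelial transcription factors 9 were tested, and 6 were higher and none lower in the untreated experiment (15.1% and 16% of all genes), with a median of 0.29. Without IFNγ 4 were higher and 0 lower (7.89% and 9.33%), with a median of 0.05. With IFNγ 4 were higher and 1, Grhl2, lower (log2 fold change -1.01), beside 8.62% and 7.9% of all genes, with a median of -0.02. Of 10 transcription factors of the epithelial to mesenchymal transition, 7 were tested in the untreated experiment, where 5 were lower and 1 higher (16% and 15.1% of all genes), with a median of -0.26. Without IFNγ 3 of 8 were lower and 1 higher (9.33% and 7.89%), and with IFNγ 2 of 8 were lower and 0 higher (7.9% and 8.62%), with medians of -0.03 and -0.00. Snai1, the Snail repressor that binds E-boxes, was lower in Sin3Bsg1 of the untreated experiment. It was at 12.2 ± 0.108 CPM in sgCtrL and 3.12 ± 0.401 CPM in Sin3Bsg1 there (SD, n = 2), a log2 fold change of -1.97 (edgeR adjusted p = 1.51e-08). Without IFNγ it was at 15.3 ± 0.698 and 15.2 ± 2.02 CPM (SD, n = 3), a log2 fold change of -0.01. Snai1 with IFNγ was at 10.8 ± 1.07 CPM in sgCtrL and 11.1 ± 0.753 CPM in Sin3Bsg1 (SD, n = 3). With IFNγ, Prrx1 rose by 1.65 in sgCtrL and 1.37 in Sin3Bsg1, Shroom3, of the adherens junction, by 0.83 and 1.28, and Foxa1 fell by 0.73 and 0.63.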

How the data were processed

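RNA-seq read counts of 16 libraries were analysed. The authors deposited estimated counts per gene in 1 table per experiment; per the labels the submitters' processing notes name fastp, HISAT2, StringTie, DESeq2 and the build mm39, while the methods name featureCounts and mm9, so the build is uncertain and no coordinate was taken from the tables. Control columns are named lacZ and were taken as sgCtrL by elimination. Values that were not whole were rounded, and 324 unnamed assembled loci (0.615 to 0.677% of counts) were left out of the untreated table. The authors' group means and comparison columns were not used. The depth, 18128016 to 32093612 counts, limits the precision of genes with few counts, and intervals were not computed from it.

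TMM factors (0.957 to 1.04), filterByExpr and edgeR 4.0.16 quasi-likelihood fits (R 4.3.3) gave two-sided tests of each table with 1 mean per group, and of both tables jointly on shared identifiers for the difference between experiments. P-values were adjusted over all genes tested (Benjamini-Hochberg), with a threshold of 0.05. SEs are the absolute log2 fold change over the root of the F statistic. CPM used effective library sizes. A count of 3 or fewer was taken as the floor. The fits were tested on simulated data, where DESeq2 on both tables jointly recovered fewer changed genes than first required, and the requirement was then restricted to genes with more counts. The alternatives were DESeq2 1.42.0, RLE factors, no filter, at least 10 counts in every library, a replicate block, fits on the 6 libraries of a contrast, and each library left out.

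The members and lists were chosen with earlier results of these data known. Values in every library are given for members that passed with at least 1.5-fold change, an interaction or a floor in 1 group; 24 met this and the 16 with the largest change were used. Of other genes, up to 3 per contrast with a mean of at least 1 CPM were named. Cldn2, Cldn12, Cldn18, Jup and the remaining members described, and Sin3b, were named after their values were seen or as a check.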

Additional observations from a re-analysis of the deposited data

Results flagged for a closer look

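In 9 members the genotype difference without IFNγ differed between the experiments by an interaction test. The difference in the IFNγ experiment minus that in the untreated experiment was, on the log2 scale, -0.75 for Cldn2, -0.75 for Ocln, -1.11 for Dsp, -1.31 for Marveld3, -0.31 for Jup, -0.20 for Cldn12, 0.63 for Cgn, 0.68 for Patj and 0.35 for Lsr. The calls of Lsr and Marveld3 were lost with the replicate block, that of Marveld3 also with DESeq2, and those of Lsr, Marveld3 and Dsp without 8, 7 and 1 of the single libraries. Cldn2 changed direction between the experiments, with log2 fold changes of 0.57 and -0.19. Experiment, depth and table differ together and cannot be told apart.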

How the results depend on the processing

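Each count of called members and each called fold change was recomputed under the alternatives, and no called fold change reversed its sign. Deviations from the group means correlated by -0.0288 to 0.119 between same-numbered libraries of different groups. Between differently numbered libraries the values were -0.133 to 0.0602. With 2 or 3 libraries a group, these values cannot settle whether the replicate numbers pair the libraries. With the replicate block 26 members were called for genotype in the untreated experiment, 14 without IFNγ and 13 with IFNγ, 13 for IFNγ in sgCtrL and 13 in Sin3Bsg1, 0 for the interaction with IFNγ and 7 for the interaction with the experiment. Over all genes the same fit called 4675, 2511 and 2389 for genotype, 4400 and 4207 for IFNγ, and 13 and 1987 for the interactions. On the 6 libraries of the contrast alone, with fewer samples, 8 members were called for IFNγ in sgCtrL, where calls over all genes were 3545 against 4507. For IFNγ in Sin3Bsg1 the calls over all genes became 4925 against 4232. The genotype calls over all genes became 3996 against 2568 without IFNγ and 1500 against 2464 with IFNγ. With 1 library left out, the members called ranged from 25 to 26 in the untreated experiment, 12 to 17 without IFNγ, 11 to 15 with IFNγ, 8 to 14 for IFNγ in sgCtrL, 9 to 14 for IFNγ in Sin3Bsg1, 0 for the interaction with IFNγ and 6 to 9 for the interaction with the experiment. The ranges over all genes were 3645 to 4221, 1864 to 3529 and 1782 to 2945 for genotype in the same order. Those for IFNγ were 3545 to 4726 and 3347 to 5248, and for the interaction with the experiment 1391 to 2363. For the interaction with IFNγ the calls over all genes, 17, became 32 with DESeq2, 110 without a filter and 1 to 33 with a library left out. Of the called fold changes recomputed with 1 library left out, 761 kept their side of the threshold and 93 lost it. Depth limits the 8 members near the floor.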
